A study of Mus musculus with 2 samples.

Results

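Interleukins are secreted signals of immune and barrier cells, and each acts on cells that carry the matching receptor chains. Receptor chains are shared within a family: the IL-1 accessory chain Il1rap serves several IL-1 type receptors, gp130 (Il6st) serves the IL-6 family, Il17ra serves most of the IL-17 family, and Il2rg is the common gamma chain of the receptors for IL-2, IL-4, IL-7, IL-9, IL-15 and IL-21. In skin, keratinocytes store or release alarmins such as IL-1 alpha and IL-33 and respond to cytokines made by resident immune cells. The genes described here were chosen by name, as all genes of the deposited tables whose symbol is Il with a number followed by a ligand or receptor suffix. This gave 80 of 50559 listed genes, of which 36 encode ligands, 3 encode receptor antagonists or related proteins, and 41 encode receptor chains, decoys included. The symbols Il18bp, Il4i1, Il4i1b and Il1bos begin alike but fall outside the name rule.

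RNA came from dorsal skin of mice at postnatal day 21 with the genotype Polr2b f/f-GFP; K14-Cre, in which Cre is driven by the keratin 14 promoter of basal epidermis. Live GFP+ cells were sorted, and 2 libraries of this single group were sequenced after removal of ribosomal RNA. Both libraries carried the same alleles and the label Telo in their titles, for the telogen stage of the hair cycle. No Cre-free group enters here. The labels do not name the animals behind each library, and the sex-linked genes below differ between the libraries, so the replicate cannot be told apart from sex or animal. The files held 36692204 counts in replicate 1 and 33489967 counts in replicate 2.

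The sorted fraction was not keratinocytes alone by its RNA. The 6 keratinocyte markers together stood at 11879 CPM (counts scaled to the library total) and 17497 CPM in replicates 1 and 2, and 6 macrophage markers at 5568 and 5592 CPM. The 6 fibroblast markers added up to 12996 and 6433 CPM. Mast cell markers summed to 21.3 and 8.93 CPM and Langerhans cell markers to 470 and 371 CPM. Of the latter, Cd74 gave 361 and 293 CPM, Epcam 103 and 74.5 CPM, and Cd207 only 6.35 and 2.84 CPM. The 7 T cell markers summed to 36.4 and 34.9 CPM, of which Cd4, which macrophages also express, gave 35.2 and 33.4 CPM, Cd3e had 29 and 32 counts, Cd8a 14 and 12, Cd3g 0 and 9, Cd3d 3 and 0, and Trac and Trdc none. The innate lymphoid list summed to 343 and 419 CPM, nearly all of it from Gata3 and Rora, which epithelial cells also express, while Ncr1 had no count. Endothelial markers summed to 51.0 and 32.8 CPM, and neutrophil markers summed to 0.409 and 0.149 CPM. Xist had 112587 counts in replicate 1 and 11 in replicate 2, while the Y-linked Uty had 0 and 2394, so the libraries differ in sex. In bulk RNA, fewer cells of a type and less RNA per cell cannot be told apart, and the cells that made each interleukin RNA were not resolved.

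Receptor RNA stood above ligand RNA. At 1 CPM or more in both libraries were 43 of 80 members (53.8%), beside 31.3% of all listed genes. These were 28 of 41 receptor genes, 13 of 36 ligand genes and 2 of 3 antagonist genes. Levels of different genes are compared below in TPM, which divides each count by the deposited gene length and scales each library to 1 common total. The median member stood at 2.35 TPM, the median receptor at 11.1 TPM and the median ligand at 0.759 TPM, beside 0.169 TPM for all listed genes. No count in either library was found for 6 members, namely the ligands Il3, Il17a, Il20, Il21 and Il22 and the receptor copy Il11ra2. A count of 0 allows up to 3 counts, or 0.0818 CPM in replicate 1 and 0.0896 CPM in replicate 2.

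Summed over a family, receptor TPM exceeded agonist ligand TPM in both libraries for the IL-1, IL-6, IL-17 and common gamma families. The log2 ratio of the sums was 4.64 ± 0.50 (SD, n = 2) for the IL-17 family, which was 19.6-fold in replicate 1 and 31.9-fold in replicate 2. It was 4.46 ± 0.03 for the common gamma family, or 21.7-fold and 22.3-fold. The IL-6 family had a log2 ratio of 2.68 ± 1.06, with 3.81-fold in replicate 1 alone and 10.8-fold in replicate 2 alone, so its size rests on which library is read. The IL-1 family had the smallest excess, at 0.88 ± 0.08, or 1.77-fold and 1.92-fold. An exact two-sided sign-flip test on 2 libraries cannot go below p = 0.5, so these ratios are described without a p-value. The common gamma ratio rests on few genes, since the difference between its median receptor and median ligand was 0.78 ± 0.35 on the log2(TPM + 0.1) scale and 0.42 ± 0.085 on the log2(TPM + 1) scale. For the IL-1 family the order itself depended on the summary. The median IL-1 receptor lay below the median IL-1 ligand, by a log2 difference of -1.06 ± 0.31 with 0.1 TPM added, and the ratio of sums turned to -0.80 ± 0.02 when antagonists were counted with the ligands and decoy and orphan receptors were left out.

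**Figure D1:**
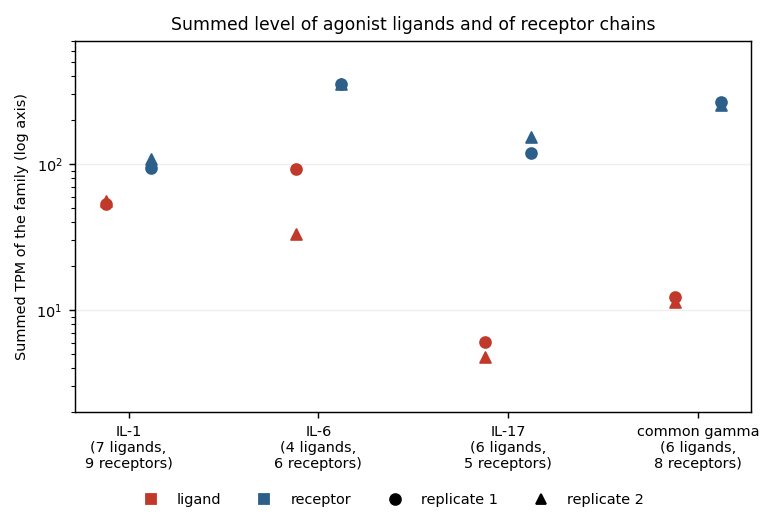
Summed TPM (vertical log axis) of the agonist ligands (red) and of the receptor chains (blue) of 4 families, with replicate 1 as circles and replicate 2 as triangles. Blue points lie above red points in each family, from 94.3 against 53.3 TPM for IL-1 in replicate 1 to 153 against 4.79 TPM for IL-17 in replicate 2.

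The IL-1 family was the family with ligands of several kinds at measurable levels. Of its 7 agonist ligands, 5 reached 1 CPM in both libraries. Il33, a nuclear alarmin that signals through ST2, had 453 counts (12.3 CPM) in replicate 1 and 790 counts (23.6 CPM) in replicate 2. Il1a, the alarmin IL-1 alpha, went the other way, with 380 counts (10.4 CPM) and 148 counts (4.42 CPM). Its exons share 222 bases with Gm14023 on the opposite strand in the GENCODE M21 annotation, a gene with 116 and 79 counts. Il1b, which is released after cleavage by caspase-1, had 409 counts (11.1 CPM) and 210 counts (6.27 CPM). Thus the 2 ligands of the type 1 IL-1 receptor were higher in replicate 1 and Il33 was higher in replicate 2. Il18, another ligand that needs caspase-1, had 367 and 429 counts. On the per-length scale these 4 ligands lay close together, from 9.28 ± 5.26 TPM for Il1a to 14.9 ± 6.61 TPM for Il33, and their order is not resolved beyond the spread between libraries. The 3 IL-36 agonists were lower in mean TPM. Il1f9 (IL-36 gamma) led them with 114 and 169 counts, at 6.14 ± 2.07 TPM, while Il1f8 (IL-36 beta) had 8 and 22 counts and Il1f6 (IL-36 alpha) 7 and 12. In replicate 2 alone, Il1f9 at 7.61 TPM stood above Il1a at 5.56 TPM.

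Of the 3 antagonist genes, Il1rn and Il1f5 stood above the summed agonists they oppose and Il1f10 was low. Il1rn, the IL-1 receptor antagonist, had 2521 and 2503 counts, or 68.7 and 74.7 CPM, and at 63.4 ± 3.85 TPM it was the highest member of the IL-1 family. Its TPM was 2.20 times the sum of Il1a and Il1b in replicate 1 and 4.79 times in replicate 2. Il1f5, the IL-36 receptor antagonist, had 302 and 380 counts, and its TPM was 1.77 and 1.35 times the sum of the 3 IL-36 agonists. Il1f10 (IL-38) had 7 and 15 counts, or 0.856 ± 0.489 TPM.

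Among the IL-1 receptors, the IL-36 receptor Il1rl2 was highest, with 2742 counts (74.7 CPM) in replicate 1 and 3220 counts (96.1 CPM) in replicate 2, or 42.2 ± 7.54 TPM. The decoy Il1r2, which binds IL-1 without signalling, stood at 25.5 ± 5.73 TPM, beside 21.1 ± 1.56 TPM for the signalling receptor Il1r1. The decoy's TPM was 0.964 times that of Il1r1 in replicate 1 and 1.48 times in replicate 2, so neither is shown to exceed the other. The shared accessory chain Il1rap was lower per length, at 7.09 ± 0.024 TPM, and its 1404 and 1273 counts gave nearly the same CPM in both libraries, 38.3 and 38.0. Receptors typical of immune cells were lower still. The ST2 gene Il1rl1 stood at 4.17 ± 1.55 TPM, the IL-18 receptor Il18r1 at 0.733 ± 0.069 TPM with 59 and 47 counts, and its accessory chain Il18rap had 34 and 6 counts. The orphan receptor Il1rapl1 had 6 and 0 counts and Il1rapl2 had 0 and 3.

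The IL-6 family had 4 receptor chains and 2 ligands at 1 CPM or more in both libraries. Il6ra, the IL-6 binding chain, had 6562 counts (179 CPM) and 7384 counts (220 CPM), or 147 ± 21.8 TPM. The signalling chain Il6st had 9283 counts (253 CPM) and 8665 counts (259 CPM), or 111 ± 1.91 TPM. Per length, Il6ra stood at 1.20 times Il6st in replicate 1 and 1.44 times in replicate 2. Il11ra1, the IL-11 binding chain, followed at 61.4 ± 1.21 TPM with 49.3 and 47.8 CPM. Its copy Il11ra2, at 98.999% identity over 1299 bases of transcript, had no count, so the separate counts of the pair are uncertain. Il31ra, the receptor chain for the itch cytokine IL-31, had 4097 counts (112 CPM) in replicate 1 and 1628 counts (48.6 CPM) in replicate 2, or 34.5 ± 19.1 TPM. Its partner Osmr, which lies outside the name rule, also stood lower in replicate 2, at 91.4 and 56.5 CPM. Il27ra had 33 and 21 counts.

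Il6 itself made up 96.7% of the family's ligand TPM in replicate 1 and 95.1% in replicate 2. It had 1508 counts (41.1 CPM) in replicate 1 and 485 counts (14.5 CPM) in replicate 2, which gave 60.4 ± 40.8 TPM. Il11, a gp130 cytokine of stromal cells, had 38 and 35 counts. Il27 had 23 and 3 counts and Il31 had 15 and 8. Apart from Il6 the family's ligands within the name rule thus lay below 1 TPM on average. The exons of Il27 share 103 bases with Apobr on the opposite strand in the GENCODE M21 annotation, a gene with 252 and 285 counts. Other gp130 ligands and receptors outside the name rule were measured as well. Lifr, the receptor for LIF, stood at 124 ± 6.32 TPM, Osm, the ligand oncostatin M, at 27.5 ± 3.85 TPM, and Lif at 1.01 ± 0.16 TPM. Of the other partner genes, Ebi3 stood at 25.7 ± 2.03 TPM and Ctf1 at 8.84 ± 0.70 TPM. Genes outside the name rule do not enter the family's sums and shares.

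Il6, Il1b and Il1a are the agonist ligands that were both above 1 CPM in each library and lower in replicate 2 within these 2 families, and their upstream sequences are shown for that reason. The 250 bases before the RefSeq start are printed 5′ to 3′ on the gene's strand from GRCm38.p6, a build other than that of the counts, at chr5:30012864-30013113 on the plus strand for Il6, chr2:129371140-129371389 on the minus strand for Il1b and chr2:129309973-129310222 on the minus strand for Il1a. Capitals mark matches on either strand to GGG followed by any 2 bases and TTTCC (an NF-kappa B type motif), to TGANTCA (AP-1) and to TTNNGNAA (C/EBP), where N is any base and no match overlaps another.
Il6: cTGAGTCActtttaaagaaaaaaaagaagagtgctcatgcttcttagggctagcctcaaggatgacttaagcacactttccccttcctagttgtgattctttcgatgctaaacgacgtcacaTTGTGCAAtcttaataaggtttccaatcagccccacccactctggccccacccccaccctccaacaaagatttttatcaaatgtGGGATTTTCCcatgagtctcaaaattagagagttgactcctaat
Il1b: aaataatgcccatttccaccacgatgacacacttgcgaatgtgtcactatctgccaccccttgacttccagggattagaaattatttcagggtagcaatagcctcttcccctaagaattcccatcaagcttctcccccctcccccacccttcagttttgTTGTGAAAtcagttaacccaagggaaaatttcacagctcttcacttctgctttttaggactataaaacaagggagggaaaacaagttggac
Il1a: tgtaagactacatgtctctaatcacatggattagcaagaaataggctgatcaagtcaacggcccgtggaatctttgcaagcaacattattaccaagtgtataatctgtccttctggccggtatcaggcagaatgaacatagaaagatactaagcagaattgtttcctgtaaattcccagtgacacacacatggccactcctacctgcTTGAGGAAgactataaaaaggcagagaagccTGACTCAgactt
The kappa B letters occurred in Il6, 44 to 35 bases before its start, and in neither of the others. The AP-1 letters occurred in Il6 at 249 to 243 and in Il1a at 12 to 6 bases before the start, and all 3 stretches held 1 C/EBP match each. Over the 32851 windows of the same length, 1.41% held the kappa B letters, 6.75% the AP-1 letters and 36.8% the C/EBP letters. RefSeq windows were found by symbol for 63 of the 80 members, in 78 windows, of which 6 held the kappa B letters, 14 the AP-1 letters and 35 the C/EBP letters. The kappa B letters also occurred in Il1rn, Il16 and Il17rc, which were higher in replicate 2 by the binomial test given below. Il23r and Il9 held them too and were not called. A match describes the letters and was not tested as a binding site, and a link to the difference between libraries was not tested.

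The IL-17 family was present almost wholly as receptors. All 5 receptor genes reached 1 CPM in both libraries, against 1 of 6 ligand genes. Il17rc, the chain that pairs with Il17ra for IL-17A and IL-17F, had 1677 counts (45.7 CPM) and 2599 counts (77.6 CPM), or 61.1 ± 22.4 TPM. Il17ra, the shared chain, had 2457 counts (67.0 CPM) and 2316 counts (69.2 CPM), or 42.3 ± 1.02 TPM. The TPM of Il17rc was 1.09 times that of Il17ra in replicate 1 and 1.79 times in replicate 2. Il17re, the chain for the epithelial cytokine IL-17C, stood at 17.1 ± 2.22 TPM. Il17rb, a chain of the IL-25 receptor, stood at 7.93 ± 0.28 TPM and Il17rd at 7.02 ± 1.20 TPM. The values of Il17rb and Il17rd overlap between libraries, although Il17rb was higher within each. The exons of Il17rb share 141 bases with Actr8 on the opposite strand in the GENCODE M21 annotation, a gene with 846 and 770 counts.

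The ligand genes of the family were far lower, at 2.40 TPM or less on average. Il17c had 52 and 68 counts (1.42 and 2.03 CPM), and Il17d, a less studied ligand of the family, had 55 and 29 counts (1.50 and 0.866 CPM). The TPM of Il17re was 8.23 and 6.90 times that of its ligand Il17c. Il17b had 10 and 2 counts, Il25 had 4 and 3, and Il17f had 10 counts in replicate 1 and 0 in replicate 2. With the floor of 3 counts in place of the 0, Il17f was 3.04-fold lower in replicate 2. That value takes the 10 counts as exact, and the 95% counting interval reached up to a log2 ratio of -1.03. Il17a, the main cytokine of skin type 17 lymphocytes, had no count.

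In the common gamma family 1 receptor stood apart. Il4ra, which binds IL-4 and pairs with Il2rg or with Il13ra1, had 14517 counts (396 CPM) in replicate 1 and 13106 counts (391 CPM) in replicate 2. At 187 ± 1.20 TPM it was the highest of the 80 members, and it made up 70.7% and 73.6% of the family's receptor TPM. Il2rg, the common gamma chain, had 1524 counts (41.5 CPM) and 1189 counts (35.5 CPM), or 57.4 ± 6.28 TPM. Il15ra, which presents IL-15 to neighbouring cells, stood at 11.1 ± 0.73 TPM and Il21r at 2.56 ± 0.059 TPM. The 4 other chains were below 1 CPM in at least 1 library, with 61 and 15 counts for Il7r, 16 and 10 for Il2ra, 17 and 6 for Il2rb, and 13 and 10 for Il9r. The TPM of Il2rg was 14.8 and 16.9 times the summed TPM of Il2ra, Il2rb, Il7r, Il9r and Il21r.

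Of the 6 ligands of this family, Il15 and Il7 reached 1 CPM in both libraries. Il15, a survival factor for lymphocytes that epithelial and myeloid cells make, had 337 and 326 counts, 9.18 and 9.73 CPM, and held 66.3% and 75.8% of the family's ligand TPM. The TPM of Il15ra was 1.43 and 1.23 times that of Il15. Il7, a lymphocyte factor made by keratinocytes and stroma, had 63 and 53 counts. The T cell cytokines were scarce, with 12 and 1 counts for Il4, 16 and 11 for Il9, 0 and 1 for Il2 and none for Il21.

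**Figure D2:**
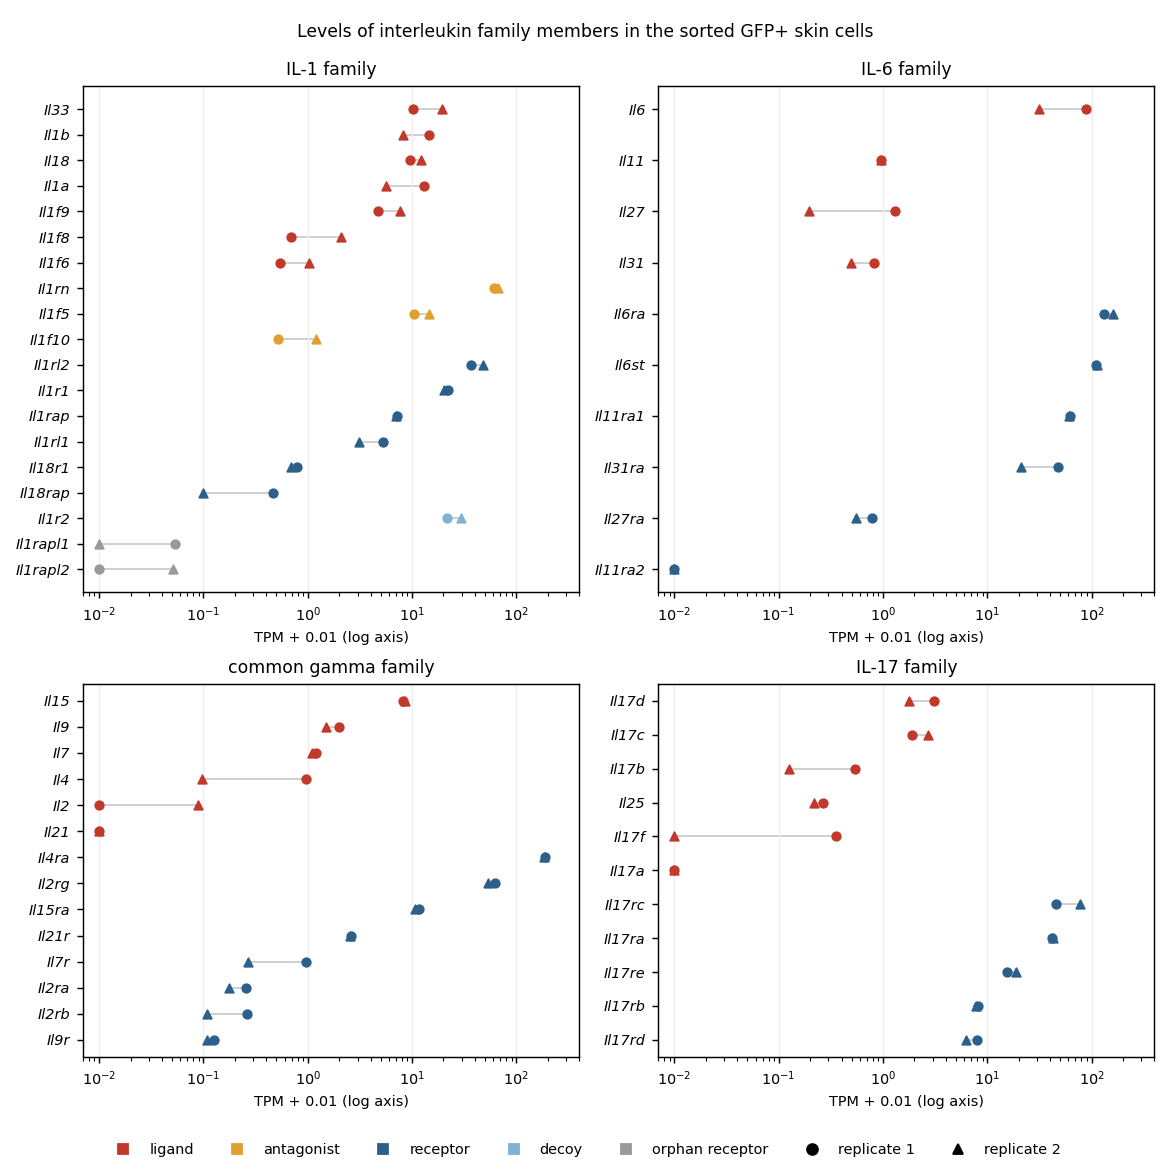
TPM plus 0.01 (horizontal log axis) of each member of 4 interleukin families in replicate 1 (circles) and replicate 2 (triangles), colored by role. Il4ra at 187 TPM, Il6ra at 147 TPM and Il6st at 111 TPM lie farthest right, and Il17a, Il21 and Il11ra2 lie at the left edge with no count.

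Outside these families, receptors again led. Il13ra1, which joins Il4ra in the receptor for IL-13 and IL-4, had 6532 counts (178 CPM) and 6800 counts (203 CPM). Its mean of 127 TPM placed it above Il2rg, the other partner of Il4ra, with 1.92 times the TPM of Il2rg in replicate 1 and 2.56 times in replicate 2. The decoy Il13ra2 had 35 and 8 counts, and the ligand Il13 had 5 and 3. Of the IL-10 family, the IL-20 receptor chain Il20rb had 3103 and 3774 counts and a mean of 98.7 TPM, the shared chain Il10rb at 80.9 ± 0.70 TPM and the IL-10 chain Il10ra at 48.9 ± 7.05 TPM. Il20ra stood at 15.1 ± 5.01 TPM and Il22ra1, the epithelial chain of the IL-22 receptor, at 10.5 ± 0.064 TPM. The soluble IL-22 binding protein Il22ra2 exceeded Il22ra1 per length, by 3.54 and 5.30 times. Their ligands had few counts, with none for Il20 and Il22, 7 and 0 for Il19 and 1 and 0 for Il24.

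Il10, the anti-inflammatory ligand of Il10ra, was the exception, with 1701 counts (46.4 CPM) and 1048 counts (31.3 CPM), or 46.0 ± 12.5 TPM. Among ligands it came after Il6 in mean TPM, and the 2 ligands' values overlap between libraries. Il34, which binds the macrophage receptor Csf1r, had 829 counts (22.6 CPM) in replicate 1 and 1441 counts (43.0 CPM) in replicate 2. Csf1, the other ligand of Csf1r, went the opposite way, at 64.0 and 35.7 CPM. Il16, a ligand of CD4 cut from a larger protein, stood at 21.4 ± 2.40 TPM, although its exons share 1202 bases with Stard5 on the opposite strand in the GENCODE M21 annotation. The alpha chain Il3ra stood at 19.4 ± 0.90 TPM, while Il5ra had 4 and 1 counts, Il5 had 2 and 1 and Il3 none. Of the IL-12 and IL-23 genes, Il12rb2 had 1822 and 2620 counts, or 19.1 ± 6.05 TPM, but its exons share 1519 bases with those of Serbp1, whose level was 137 and 149 CPM. Reads of such opposite genes cannot be told apart where counting ignores strand, and no source used here gives the strand setting. Il12rb1 had 31 and 59 counts, Il23r 12 and 16, Il23a 24 and 41, Il12a 1 and 0, and Il12b 0 and 1.

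**Figure D3:**
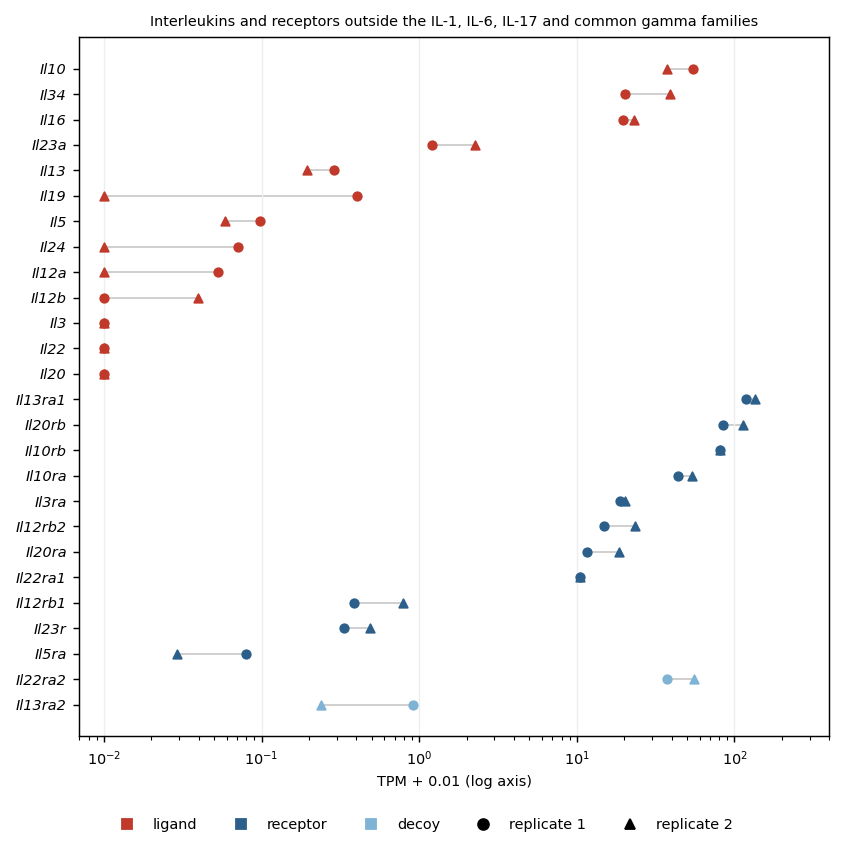
TPM plus 0.01 (horizontal log axis) of the 26 members outside the IL-1, IL-6, IL-17 and common gamma families, in replicate 1 (circles) and replicate 2 (triangles). Il13ra1 at 127 TPM and Il20rb at 98.7 TPM lie farthest right, and the ligands Il3, Il20 and Il22 lie at the left edge with no count.

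Each member with 10 or more counts in total was then compared between the libraries by a two-sided exact binomial test. Its p-values were adjusted by the Benjamini-Hochberg method over the 23690 genes that passed this filter. The test measures counting error between these libraries and no condition. Of 63 members that passed the filter, 21 were higher in replicate 2 (33.3%, beside 16.9% of all tested genes) and 16 were lower (25.4%, beside 27.2%). Over all tested genes this was 3993 higher and 6443 lower, a split that TMM scaling moved to 5381 and 5068. On the log2 scale, replicate 2 over replicate 1, the members' median was -0.01 and that of all tested genes -0.09. edgeR's exact test with the same adjustment called 0 of the 63 members, beside 0.279% of all tested genes. Before adjustment, 12 of the 63 members had a p under 0.05 in it, beside 1693 of all 23690 tested genes. That test took its dispersion from the difference between these same libraries, so its count of 0 says little about any member. The differences below were set against counting error alone.

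Agonist ligands moved in both directions. In the IL-1 family, Il33 was higher in replicate 2 at a log2 ratio of 0.93 (95% counting interval 0.77 to 1.10, adjusted p = 8.93e-28 by the exact binomial test, edgeR adjusted p = 0.611). Il1a was lower at -1.23 (-1.51 to -0.95, adjusted p = 4.21e-19 by the exact binomial test, edgeR adjusted p = 0.480), and Il1b at -0.83 (-1.08 to -0.59). The IL-36 agonists Il1f9 and Il1f8 were higher, at 0.70 and 1.59, as was Il18 at 0.36. Both antagonists above 1 CPM were higher by small amounts, Il1f5 at 0.46 and Il1rn at 0.12. Among IL-1 receptors, Il1rl2 and the decoy Il1r2 were higher, at 0.36 and 0.46, and Il18rap, Il1rl1 and Il1r1 were lower, at -2.37, -0.78 and -0.15, the last not called after TMM or DESeq2 scaling.

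Il6 was lower in replicate 2 at a log2 ratio of -1.50 (-1.66 to -1.36, adjusted p = 2.24e-100 by the exact binomial test, edgeR adjusted p = 0.222), which is 2.84-fold. Il31ra was lower at -1.20 (-1.28 to -1.12, adjusted p = 1.50e-192 by the exact binomial test, edgeR adjusted p = 0.461), and Il27 at -2.81 on 26 counts in all. Il6ra was the 1 member of this family that was higher, at 0.30, while Il6st and Il11ra1 gave 0.03 (-0.01 to 0.07) and -0.04 (-0.14 to 0.06), the former called higher after TMM or DESeq2 scaling. In the IL-17 family Il17rc was higher at 0.76 (0.67 to 0.85, adjusted p = 5.26e-64 by the exact binomial test, edgeR adjusted p = 0.785) and Il17re at 0.26. Il17rd, Il17d and Il17f were lower, although the call on Il17d was lost after TMM or DESeq2 scaling and with no filter on counts. The shared chain Il17ra gave 0.05 (-0.04 to 0.13) and was called higher after TMM or DESeq2 scaling. In the common gamma family none of 12 tested members was higher, apart from Il4ra after TMM or DESeq2 scaling. Il7r, Il2rg and Il4 were lower, at -1.89, -0.23 and -3.45, the last on 12 and 1 counts (-8.87 to -0.70). Il4ra gave -0.02 (-0.05 to 0.02).

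Of the 16 tested members outside these families, 10 were higher and 2 lower in replicate 2, beside 16.9% and 27.2% of all tested genes. After TMM or DESeq2 scaling Il10rb and Il3ra were called higher too, and the split over all genes moved as given above. Il34 was higher at 0.93 (0.81 to 1.05, adjusted p = 7.95e-50 by the exact binomial test, edgeR adjusted p = 0.608), and the receptor chains Il20ra and Il20rb at 0.69 and 0.41. The IL-22 binding protein Il22ra2 was higher at 0.57, Il12rb2 at 0.66, Il10ra at 0.29, Il16 at 0.23 and Il13ra1 at 0.19, as were Il12rb1 and Il23a on fewer counts, at 1.06 and 0.90, the call on Il23a being lost with no filter on counts. Il10 was lower at -0.57 and Il13ra2 at -2.00. Beside these values, all 6 keratinocyte markers were higher in replicate 2 at a median log2 ratio of 0.53, all 6 fibroblast markers lower at -0.97, and all 5 tested mast cell markers lower at -1.18, with Ms4a2 at 1 and 0 counts. The 3 Langerhans cell markers were lower at a median of -0.47 and the 3 endothelial markers at -0.57. Gata3 and Rora of the innate lymphoid list were higher at a median of 0.30, none of 3 tested T cell markers was called (median -0.08), and the 6 macrophage markers had a median of 0.01 with 2 higher and 2 lower. The part of these cell types in the interleukin differences was not tested.

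**Figure D4:**
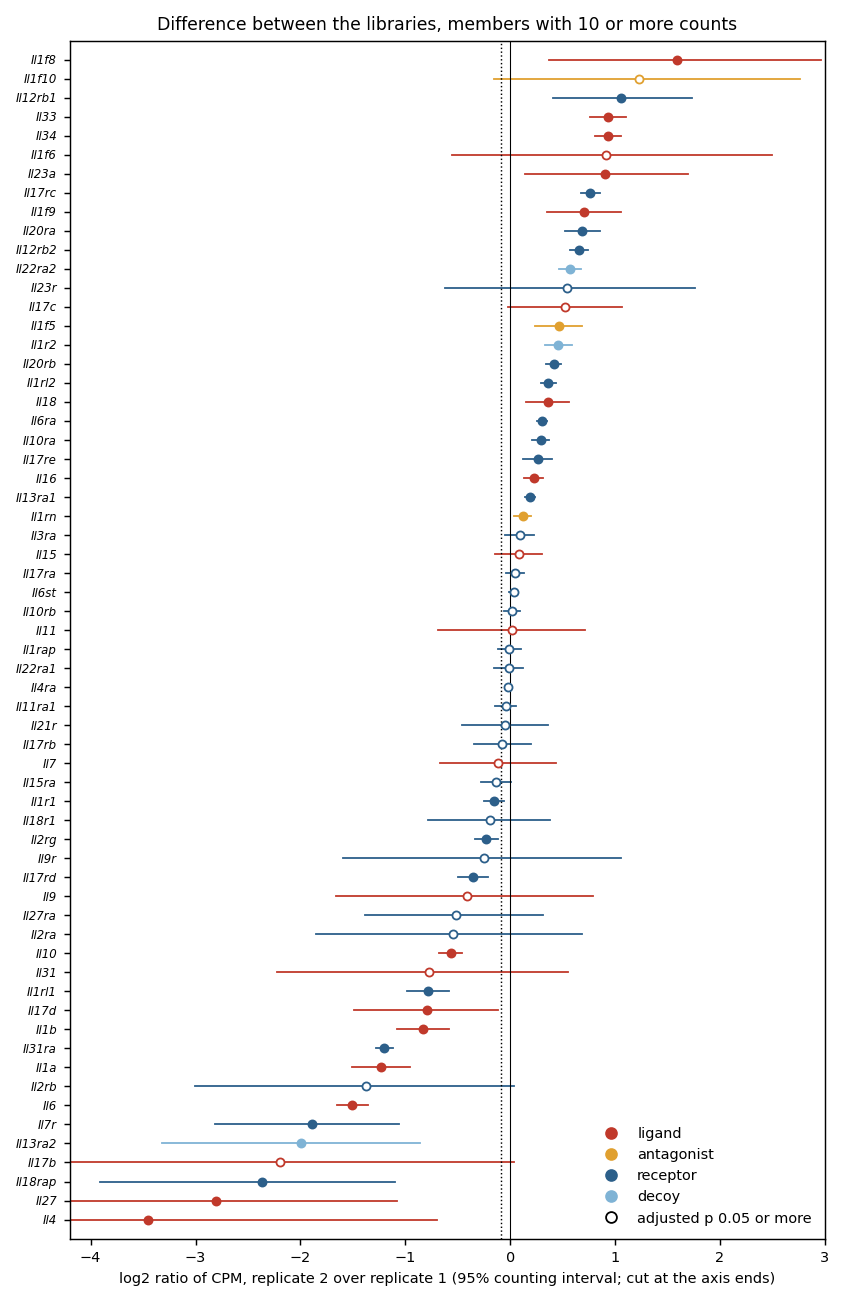
log2 ratio of CPM in replicate 2 over replicate 1 (horizontal axis) with its 95% counting interval for the tested members that have counts in both libraries, filled where the adjusted p of the exact binomial test was under 0.05. The dotted line is the median of all tested genes at -0.09, and Il33 and Il34 at 0.93 lie to its right while Il1a, Il6 and Il31ra at -1.23, -1.50 and -1.20 lie to its left.

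The genes that carry these signals inside the cell were measured at higher levels than most ligands. All 16 genes of IL-1 receptor signalling reached 1 CPM in both libraries, at a list median of 28.2 TPM, and by the binomial test 7 of 16 were higher and 5 lower in replicate 2. These counts and those of the next 3 lists stand beside 16.9% higher and 27.2% lower among all tested genes. Tollip, an inhibitor of the receptor complex, stood at 150 ± 19.8 TPM, the adaptor Myd88 at 111 ± 5.41 TPM and the TAK1-binding adaptor Tab2 at 48.2 ± 4.08 TPM, and Ikbkg was lowest at 9.80 ± 0.69 TPM. Of 17 genes of JAK kinases, STAT factors and their regulators, 16 reached 1 CPM in both, with 8 higher and 6 lower. Socs3, a feedback inhibitor induced through gp130 and STAT3, led at 856 ± 110 TPM, followed by Jak1 at 182 ± 13.4 TPM and Stat3 at 167 ± 7.96 TPM. Stat4, the IL-12 factor of lymphocytes, was lowest with 34 and 12 counts.

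Of 14 genes of IL-17 signalling and its targets, 12 reached 1 CPM in both libraries, with 2 higher and 4 lower in replicate 2. Nfkbiz, a nuclear cofactor induced by IL-17 and IL-1, led at 636 ± 1.14 TPM, followed by Cebpb at 172 ± 17.3 TPM and the RNase Zc3h12a at 161 ± 46.5 TPM. Secreted targets ranged widely. The chemokine gene Cxcl1 had 2275 counts in replicate 1 and 1435 in replicate 2, Lcn2 had 153 and 47, and the chemokine gene Cxcl5 had none. Of 18 partner genes outside the name rule, 16 reached 1 CPM in both, with 2 higher and 6 lower. Csf1r, the receptor of IL-34, led at 610 ± 82.3 TPM and is also a macrophage marker. Lifr came next, then the chain Csf2rb, shared by the receptors of IL-3 and IL-5, at 39.6 ± 1.34 TPM, and the cytokine Csf2 was lowest with 6 and 1 counts.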

How the data were processed

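Bulk RNA sequencing of sorted GFP+ cells was deposited as 1 table per library with raw counts per gene and gene lengths. The authors made these counts with featureCounts and the mm39 build, per the submitters' processing notes. Not given in the sources used here were the annotation, the aligner, the strand setting and the handling of multiply mapped reads. CPM were computed from library totals and TPM from the deposited lengths. Both replicates form 1 group, and 10 counts in total were required for tests, run across all genes in Python 3.11.15 with scipy 1.17.1 (exact binomial test, Clopper-Pearson intervals). edgeR 4.0.16 gave the exact test with TMM factors and the common dispersion of an intercept-only fit, a coefficient of variation of 22.8%, and DESeq2 1.42.0 gave alternative size factors. A quasi-likelihood fit has no residual degrees of freedom here. Log2 ratios between libraries carry no pseudocount. Intervals and the floor of 3 counts cover counting error only. Overlapping exons and copies came from GENCODE M21 on GRCm38 (blastn 2.17.0), and no mm39 coordinates are given. The binomial and edgeR steps were checked on simulated counts. Members, families, roles and gene lists were chosen with earlier results of these data known. Named were members at 1 CPM or more in both libraries, all members of the 4 families, all members past the binomial test, and of each pathway list the 3 highest genes and the lowest by TPM. Other genes were named after their values were seen.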

Additional observations from a re-analysis of the deposited data

How the results depend on the processing

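Receptor over ligand sums stayed positive in the IL-6, IL-17 and common gamma families under every alternative run, while their sizes moved. With summed CPM the log2 ratios were 2.12 for IL-1, 4.48 for IL-6, 5.80 for IL-17 and 5.30 for common gamma. Differences of medians of log2(TPM + 0.1) were -1.06, 5.51, 5.53 and 0.78 in the same order, and with log2(TPM + 1) they were -0.92, 4.58, 3.80 and 0.42. Without the highest ligand and receptor, the ratios of sums were 0.57 for IL-1, 6.54 for IL-6 and 4.42 for common gamma. Counting antagonists with the ligands, without decoy and orphan receptors, gave -0.80 for IL-1. Single libraries gave 0.82 to 0.94 for IL-1, 1.93 to 3.43 for IL-6, 4.29 to 4.99 for IL-17 and 4.44 to 4.48 for common gamma. Detected members numbered 36 to 47 over the other limits and single libraries. With edgeR's exact test 0 members were higher and 0 lower. TMM or DESeq2 scaling each gave 26 higher and 14 lower members and kept 35 of the 37 binomial calls, losing Il17d and Il1r1. With no filter 35 of the calls were kept, without Il17d and Il23a, and at 50 or more counts 31 were kept, since 6 members with fewer counts were not tested. No binomial call turned direction. Over all genes these scalings moved the split from 3993 higher and 6443 lower to 5381 and 5068 with TMM and 5494 and 4977 with DESeq2 factors. Leaving out a library ends the comparison between libraries, so it was not run there. No paired analysis was possible because there is 1 group.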
